A study of Mus musculus with 6 samples.

Results

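SR proteins and heterogeneous nuclear ribonucleoproteins (hnRNPs) are the 2 large families of RNA-binding proteins that steer the choice of splice sites. Their genes were taken from the deposited expression table by biotype and symbol: protein coding genes named Srsf with a number, Tra2a or Tra2b (13 SR protein genes) and those whose symbol starts with Hnrnp (20 hnRNP genes). This gave 33 genes of 22046 protein coding genes and 54532 genes in all. A further 2 genes that carry such a symbol are not protein coding and were left out by their biotype. The rule itself uses no measured value. The hearts came from mice 4 days old, 3 labelled Wtapflox/flox (Wtap-flox here) and 3 labelled Wtap-CKO, a conditional knockout of Wtap. The labels name no Cre driver, strain, sex or deleted exon, and do not say whether a heart sample pooled animals; the groups share no other allele or agent in the labels. WTAP is a subunit of the nuclear complex that methylates adenosines in messenger RNA (m6A).

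SR proteins carry RNA recognition motifs and a tail rich in arginine and serine. They bind enhancers within exons and recruit the spliceosome, and kinases and phosphatases of that tail set where they sit in the nucleus. Many hnRNPs coat nascent transcripts and often act against SR proteins by silencing exons. Many SR proteins and some hnRNPs control their own messenger RNA through exons that carry a stop codon and send the transcript to nonsense-mediated decay. In the heart, loss of single members such as SRSF1, SRSF10 or hnRNP U is known to impair splicing of transcripts for calcium handling and contraction. The proteins hnRNP A2/B1 and hnRNP C are known for binding methylated or methylation-remodelled RNA.

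The 6 libraries held between 15649028 and 18045599 reads (or read pairs) assigned to genes. Each heart resembled the hearts of its own label more than the rest. On the first principal component (52.6% of the variance) Wtap-flox lay at -30.0 to -20.5 and Wtap-CKO at 17.2 to 32.7. On the second (20.4%) the Wtap-CKO hearts lay on both sides of Wtap-flox (0.13 to 4.14). Wtap-CKO 3 was at 28.1, and Wtap-CKO 1 and 2 were at -14.7 and -21.3. Wtap itself, counted over the whole gene, measured 7.77, 8.74 and 10.9 FPKM in Wtap-flox and 9.32, 7.75 and 9.46 in Wtap-CKO. The groups overlapped, with a log2 fold change of -0.04 (95% interval -0.37 to 0.29, adjusted p = 0.893, limma), so the values do not check the labels and every direction below rests on them. All 8 cardiomyocyte markers were present (summed FPKM 14437 to 17563 in Wtap-flox and 15666 to 18780 in Wtap-CKO), and the skeletal muscle genes Myod1 and Myh4 were listed at 0 in all hearts. Of the 8 cardiomyocyte markers 1 was lower (Ryr2) and none higher, and 3 had an unadjusted p under 0.05 (limma). Their log2 fold changes ran from -1.78 to 0.36. In 4 of 9 marker lists the summed level did not overlap between the groups. Markers of proliferating cells summed to 159 to 238 FPKM in Wtap-flox and 112 to 129 in Wtap-CKO, with 5 of 7 lower and none higher. Markers of macrophages and other leukocytes summed to 33.7 to 39.6 and 49.5 to 99.7 FPKM, with 1 of the 5 tested higher. Epicardial markers summed to 4.12 to 5.38 and 8.23 to 9.65 FPKM. Of the 2 tested, Krt19 was higher (log2 fold change 1.35) and the other had 0.22, while 3 of the 5 were below 1 FPKM. Skeletal muscle markers summed to 365 to 425 and 229 to 269 FPKM, and the 1 tested, Ckm, was lower. The other 5 of the 6 were below 1 FPKM, so this sum is in effect that of Ckm, which heart muscle also expresses. Their part in the results below was not tested, and in whole hearts fewer cells of a type and less RNA per cell cannot be told apart.

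Nearly all of these genes were well expressed. Levels are in FPKM, reads scaled by library size and by the gene length listed in the file. The order of genes below depends on that length. Hnrnpr had 10093 reads over 22199 bases in the 6 hearts together, and Srsf9 had 3057 reads over 1653 bases (18.4 FPKM). Whether the transcripts present had the listed lengths was not tested. The library sizes implied by the values were 17431182, 15893746 and 17718012 in Wtap-flox, above the 16589331, 15649028 and 17115796 assigned reads. In Wtap-CKO they were 16148068, 15445008 and 17630038, below the 16485304, 15812407 and 18045599 assigned reads. Against scaling by assigned reads, the deposited values thus stand higher in Wtap-CKO relative to Wtap-flox. Hnrnpa0, which binds AU-rich messages, stood highest at 148.7 FPKM over the 6 hearts. After it came Hnrnpa2b1 (117.8), Hnrnpab (109.3), Hnrnpa1 (88.9) and Srsf2 (87.6), and each gene's range over the hearts overlapped that of the next in this order. These 5 genes held 37.7% to 40.9% of the summed FPKM of the 33. At the lower end were Srsf4 (7.14), the hnRNP L paralogue Hnrnpll (6.01) and Hnrnpr (4.53). Srsf12, an SR-like protein that can act against other SR proteins, was alone below 1 FPKM. A total of 32 members therefore entered the test, which took the 12568 genes that averaged 1 FPKM or more. For the 32, between 307 and 15643 reads stood behind each value of a single heart. Srsf12 had 25 reads in the 3 Wtap-flox hearts together and 17 in the 3 Wtap-CKO hearts (0.0729, 0.220 and 0.179 against 0.0197, 0.103 and 0.198 FPKM). Its groups overlapped (exact two-sided permutation test, p = 0.6, where 0.1 is the smallest p for 3 against 3), and no difference was detectable at this depth.

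**Figure D1:**
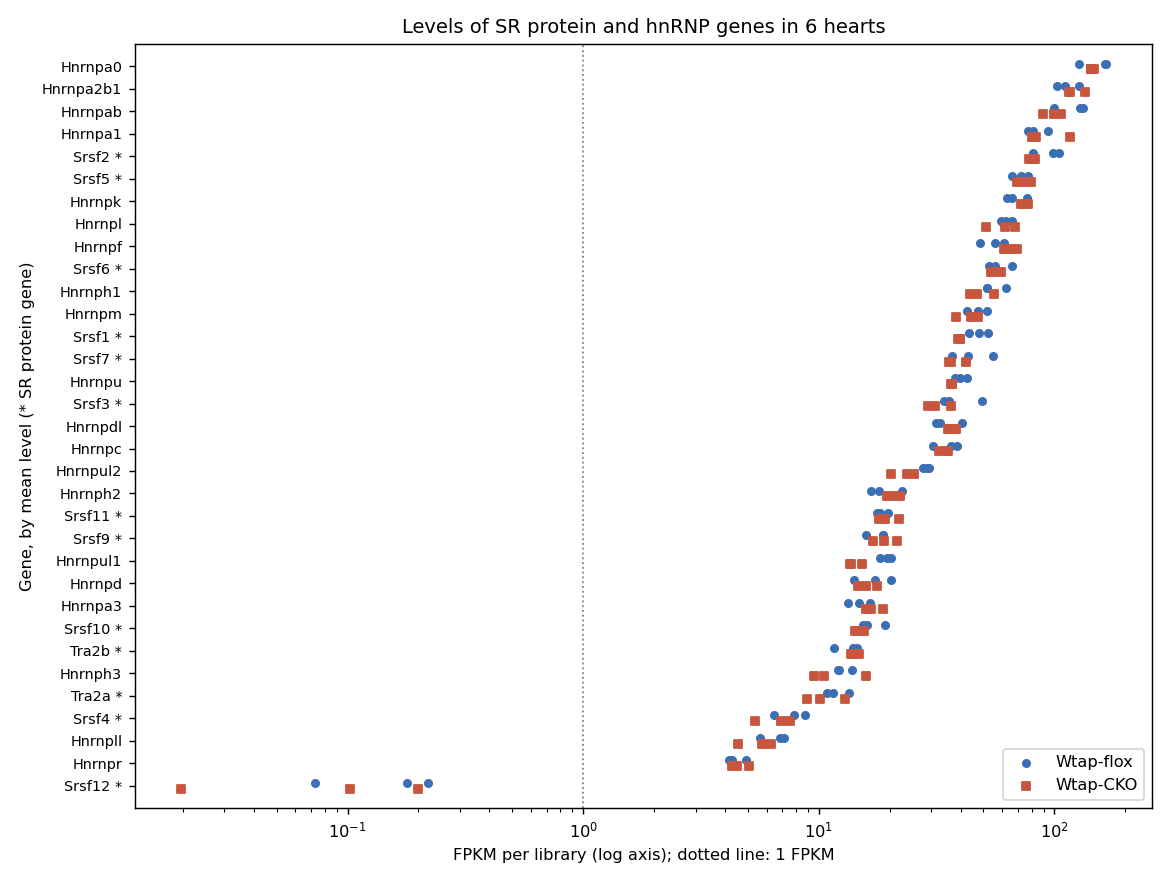
FPKM of each of the 33 genes in each heart (log axis; circles Wtap-flox, squares Wtap-CKO; rows ordered by the mean over 6 hearts; dotted line at 1 FPKM). The genes run from Hnrnpa0 at 148.7 FPKM to Srsf12, alone below 1 FPKM, and for most rows the circles and squares overlap.

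Across both families, 1 of 32 tested genes passed and it was lower in Wtap-CKO. Genes were compared by limma on log2(FPKM + 1), with p-values adjusted over all 12568 genes and a threshold of 0.05. Of all genes tested, 16.6% passed, 9.91% higher and 6.69% lower, against 3.13% of the members. The share of calls that were higher depended on scaling: it was 59.7% as deposited, 45.4% with upper-quartile and 33.4% with TPM scaling, which moved the median of all genes to -0.15. At an unadjusted p under 0.05 there were 2 members (6.25%) and 31.6% of all genes. The members' log2 fold changes ran from -0.41 to 0.25, with a median of -0.08 against 0.00 over all genes (-0.24 against -0.15 with TPM scaling), and 20 of 32 were negative (49.6% of all genes were). For 30 of the 32 the estimate lay within 0.3 of 0, as it did for 61.0% of all genes.

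The intervals show how large a difference these 6 hearts leave room for. No 95% interval of the 32 reached a 2-fold change in either direction: the lowest bound was -0.67 (Hnrnpul1) and the highest 0.56 (Hnrnpf), both as log2 differences of FPKM + 1. Over all genes tested, 84.5% of intervals stayed inside 2-fold. Each interval covers 1 gene, not all 32 at once, and the half-widths ran from 0.25 to 0.40. They are not adjusted over genes, so an interval clear of 0 was not enough to pass. That of Hnrnpul2 ran from -0.58 to -0.02, and its adjusted p was 0.137 (limma). The intervals stayed inside 2-fold for every member tested under all 18 alternative settings, with a lowest bound of -0.89 under TPM scaling and a highest of 0.70 without Wtap-flox 3.

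**Figure D2:**
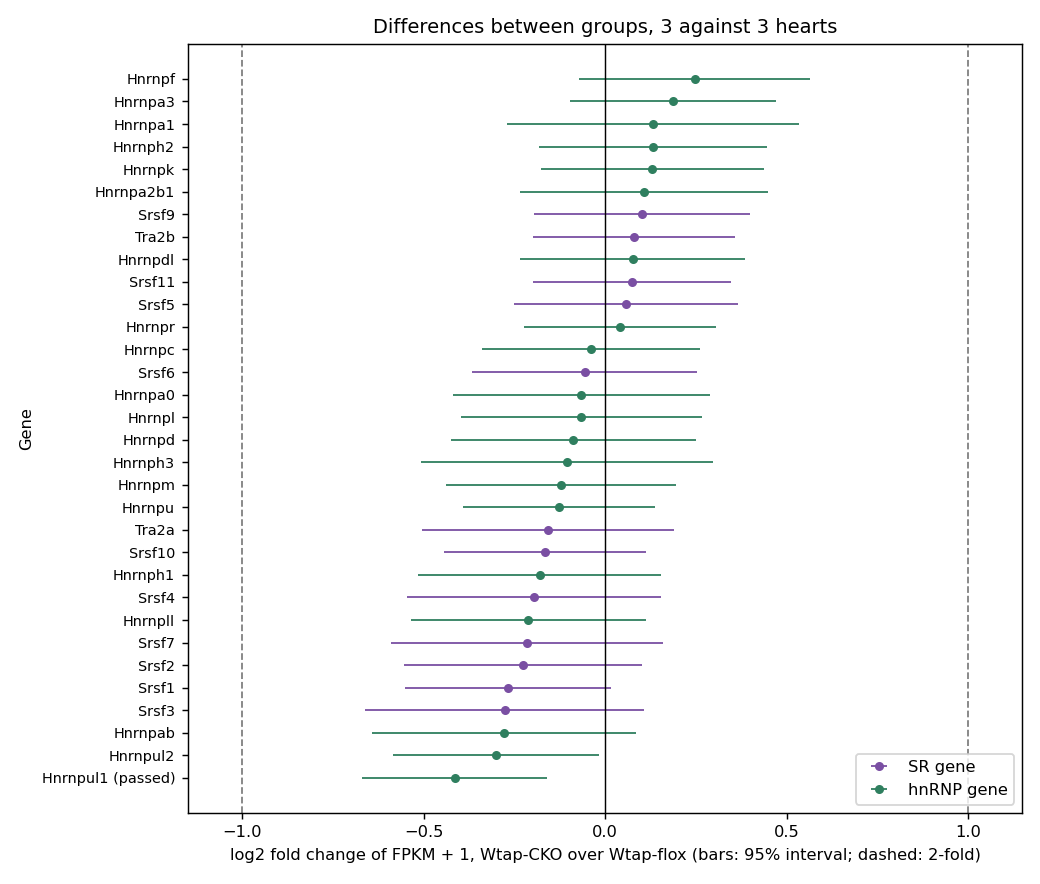
Log2 fold change of FPKM + 1, Wtap-CKO over Wtap-flox, for the 32 tested members (points: limma estimates from 3 against 3 hearts; bars: 95% intervals; dashed lines: 2-fold). Every bar lies between the dashed lines, and Hnrnpul1 at -0.41 is the member that passed.

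Groups whose hearts did not overlap were counted too. In 5 of 32 members (15.6%) all 3 values of a group lay on one side of the other group; the share was 37.1% among all genes tested. Of these, 4 were lower in Wtap-CKO (17.3% among all genes) and 1 was higher (19.8% among all genes). They were Hnrnpul1, Hnrnpul2, Hnrnpu and Srsf1 on the lower side and Hnrnpf on the higher side. The 3 genes of the hnRNP U family were thus all on the lower side, although only Hnrnpul1 passed the test.

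The hnRNP U family held the member that changed. Hnrnpu encodes a nuclear matrix protein that binds both RNA and DNA, and Hnrnpul1 and Hnrnpul2 encode its paralogues, which are also known for work at DNA breaks. Hnrnpul1 (ENSMUSG00000040725, chromosome 7, 25721165 to 25754757 on the minus strand, GRCm38) measured 19.4, 20.2 and 18.2 FPKM in Wtap-flox. In Wtap-CKO its values were 13.7, 15.3 and 13.6 FPKM. All 3 knockout values lay below all 3 control values. The means were 19.3 ± 1.01 and 14.2 ± 0.927 FPKM (SD, n = 3), a log2 fold change of -0.41 (SE 0.11, adjusted p = 0.037, limma). Hnrnpul1 missed the threshold without any 1 of Wtap-flox 1, 2 or 3, Wtap-CKO 1 or Wtap-CKO 3 (adjusted p 0.0599 to 0.138), at fold changes between -0.45 and -0.38, and also without the filter on low values (adjusted p = 0.0781). It passed in 11 of the 18 settings and was negative in all of them.

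Hnrnpul2 (chromosome 19) had 29.2, 28.7 and 27.8 FPKM in Wtap-flox and 20.2, 23.7 and 25.4 in Wtap-CKO. The groups did not overlap, but the log2 fold change of -0.30 (95% interval -0.58 to -0.02) did not pass (adjusted p = 0.137, limma). Hnrnpul2 passed with TPM scaling (adjusted p = 0.0325) and with array weights (adjusted p = 0.0178). Hnrnpu differed least of the family, with 38.0, 39.7 and 42.6 FPKM in Wtap-flox against 36.6, 36.7 and 36.4 in Wtap-CKO. Its log2 fold change was -0.13 (adjusted p = 0.503), and Cox20, a coding gene on the other strand, overlaps its locus. As a share of the FPKM of these 3 genes, which no scaling factor between libraries can move, Hnrnpul1 held 22.4%, 22.8% and 20.5% in Wtap-flox and 19.5%, 20.2% and 18.0% in Wtap-CKO. The shares did not overlap between the groups, but Wtap-flox 3 (20.5%) and Wtap-CKO 2 (20.2%) lay close. Hnrnpul1 was picked because it passed, and the exact two-sided permutation test cannot go below 0.1 for 3 against 3.

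**Figure D3:**
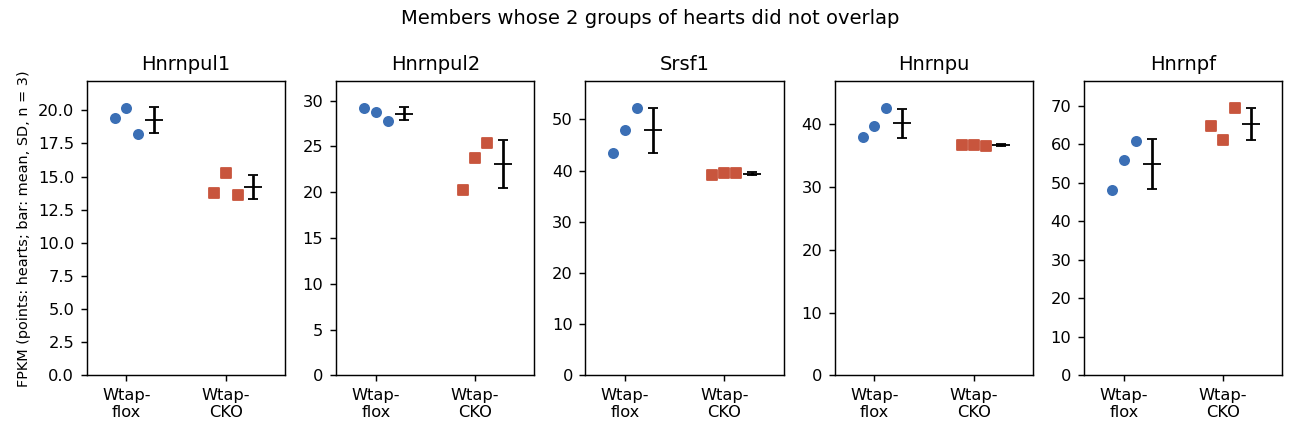
FPKM in each heart (circles Wtap-flox, squares Wtap-CKO; bars: mean and SD, n = 3; axes from 0) for the 5 members whose groups did not overlap. For Hnrnpul1 the lowest Wtap-flox heart is at 18.2 FPKM and the highest Wtap-CKO heart at 15.3, while Hnrnpf lies higher in Wtap-CKO.

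The sequence upstream of these genes is shown for those that have an entry in RefSeq's table (GRCm38.p6), because they are the members whose groups lay apart. Hnrnpul2 has no entry. Each line gives the 250 bases before the RefSeq start, 5′ to 3′ on the gene's strand. Capitals mark 5 short motifs on either strand: the TATA box (TATAAA), the CCAAT box (CCAAT), the GC box (GGGCGG), an ETS factor core (CGGAAG) and the first bases of the cyclic AMP response element (TGACG). The lines are Hnrnpul1 at chr7:25754760-25755009 (minus strand), Hnrnpu at chr1:178337816-178338065 (minus), Srsf1 at chr11:88047123-88047372 (plus) and Hnrnpf at chr6:117900090-117900339 (plus).
Hnrnpul1: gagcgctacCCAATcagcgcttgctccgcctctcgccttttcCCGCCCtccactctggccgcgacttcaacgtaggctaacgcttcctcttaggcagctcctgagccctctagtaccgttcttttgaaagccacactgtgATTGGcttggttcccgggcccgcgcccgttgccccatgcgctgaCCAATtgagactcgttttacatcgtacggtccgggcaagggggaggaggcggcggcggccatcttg
Hnrnpu: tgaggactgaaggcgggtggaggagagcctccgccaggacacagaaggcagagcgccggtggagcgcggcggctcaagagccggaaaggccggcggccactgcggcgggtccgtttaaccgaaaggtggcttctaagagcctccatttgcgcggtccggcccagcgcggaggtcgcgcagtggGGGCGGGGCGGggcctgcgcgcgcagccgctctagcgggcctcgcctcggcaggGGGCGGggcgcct
Srsf1: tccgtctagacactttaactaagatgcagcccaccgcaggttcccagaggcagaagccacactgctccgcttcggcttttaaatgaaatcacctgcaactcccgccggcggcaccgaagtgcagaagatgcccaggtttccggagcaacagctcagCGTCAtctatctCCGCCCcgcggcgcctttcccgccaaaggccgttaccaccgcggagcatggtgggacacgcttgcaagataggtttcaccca
Hnrnpf: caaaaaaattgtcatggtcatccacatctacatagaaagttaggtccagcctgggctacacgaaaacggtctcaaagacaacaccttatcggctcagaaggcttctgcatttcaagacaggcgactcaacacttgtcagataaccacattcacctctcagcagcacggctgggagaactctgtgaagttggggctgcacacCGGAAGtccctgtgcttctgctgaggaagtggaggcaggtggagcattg

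Hnrnpul1 has 3 CCAAT boxes and 1 GC box in this window. Hnrnpu has 3 GC boxes, of which the first and the next overlap, and Srsf1 has 1 GC box and 1 TGACG. Hnrnpf has 1 ETS core and differs in composition: its window is 50.4% G and C with 6 CG pairs, against 22, 32 and 19 CG pairs in the other three. For 31 of the 33 members a promoter could be matched by symbol, and the one nearest the start in the file was used, at up to 2349 bases from it. Their median GC content was 63.6%, with 23 CG pairs, against 60.4% and 16 pairs over 8784 tested coding genes and 56.0% and 10 pairs over all 16477 coding genes with an entry. The GC box was found in 25 of 31 members (80.6%, against 44.5% of all), the CCAAT box in 16 (51.6% against 36.1%), TGACG in 17 (54.8% against 20.7%), the ETS core in 10 (32.3% against 17.9%) and the TATA box in 3 (9.68% against 11.9%). Among the tested coding genes the shares were 62.3% for the GC box, 36.7% for the CCAAT box, 28.2% for TGACG, 26.7% for the ETS core and 6.09% for the TATA box. The E box (CACGTG), also searched but not marked above, was found in 2 of 31 members (6.45%), against 6.81% of all and 8.62% of the tested coding genes. These matches describe the letters in the window and were not tested as sites.

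None of the 12 tested SR protein genes passed (0 at an unadjusted p under 0.05, limma), although 8 of 12 had a negative fold change, with a median of -0.16. That median was -0.09 without Wtap-CKO 2, -0.07 without Wtap-flox 3 and -0.20 without Wtap-flox 1. Among the 8 classical SR genes, Srsf1 to Srsf7 and Srsf9, 6 were negative. Srsf1, the prototype of the family and a known regulator of heart splicing, had 43.4, 47.9 and 52.3 FPKM in Wtap-flox and 39.1, 39.6 and 39.6 in Wtap-CKO. The Wtap-CKO hearts lay close together just below the lowest Wtap-flox heart, and the log2 fold change of -0.27 (95% interval -0.55 to 0.02) did not pass (adjusted p = 0.181). It passed with TPM scaling (adjusted p = 0.0347) and quantile normalization (adjusted p = 0.04).

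Srsf3, the smallest SR protein and an adaptor for export of messenger RNA, had 34.0, 35.7 and 49.4 FPKM in Wtap-flox and 36.5, 31.2 and 29.1 in Wtap-CKO. The groups overlapped, with a single high heart, Wtap-flox 3, and the log2 fold change was -0.28 with that heart and -0.11 without it. Srsf7, also an export adaptor, showed the same heart on top, with 36.9, 43.1 and 54.7 FPKM against 36.5, 35.5 and 42.3. Its log2 fold change of -0.22 (adjusted p = 0.412) became -0.07 without Wtap-flox 3. Srsf2, which sits in nuclear speckles, had 81.5, 98.4 and 104.4 FPKM in Wtap-flox and 80.8, 82.4 and 78.1 in Wtap-CKO (log2 fold change -0.23, adjusted p = 0.322). Its locus overlaps the coding genes Mfsd11 and Mettl23 on the other strand, and the counting is not stated to use strand.

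Srsf4 (7.68 ± 1.17 and 6.59 ± 1.12 FPKM, SD, n = 3) had a log2 fold change of -0.20. Srsf5 (72.0 ± 5.74 and 74.9 ± 5.45) had 0.06, Srsf6 (58.2 ± 6.81 and 55.8 ± 2.87) had -0.06 and Srsf9 (17.7 ± 1.61 and 19.1 ± 2.29) had 0.10. The intervals of these 4 spanned 0. Among the SR-like genes, Srsf10 encodes a splicing repressor that is activated by dephosphorylation in heat shock. It stood at 16.8 ± 2.05 and 14.8 ± 0.626 FPKM (log2 fold change -0.17, adjusted p = 0.394). Srsf11 had 0.07. Tra2a and Tra2b bind GAA-rich exonic enhancers, and their fold changes of -0.16 and 0.08 had opposite signs (that of Tra2b turned negative with TPM and upper-quartile scaling), with intervals of -0.51 to 0.19 and -0.20 to 0.36.

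Outside the U family, no hnRNP gene passed. Of all 20 hnRNP genes tested, the U family included, 12 were negative, with a median of -0.07. The 3 genes of the U family were all among the negative ones. The median was -0.13 without Wtap-flox 1, 0.01 without Wtap-flox 3, -0.03 without Wtap-CKO 2 and -0.04 without either Wtap-flox 2 or Wtap-CKO 1. Genes of the A/B type, whose products bind exonic silencers, had 3 positive fold changes of 4, of which those of Hnrnpa1 and Hnrnpa2b1 turned negative with TPM scaling and quantile normalization. Hnrnpa1 had 77.6, 81.1 and 94.2 FPKM in Wtap-flox and 83.9, 80.1 and 116.5 in Wtap-CKO. Wtap-CKO 3 was the high heart here, and the log2 fold change of 0.13 turned to -0.03 without it. Hnrnpa2b1 stood at 113.5 ± 12.7 and 122.1 ± 10.97 FPKM (0.11), Hnrnpa3 at 14.9 ± 1.55 and 17.0 ± 1.49 (0.19, adjusted p = 0.346) and Hnrnpa0 at 152.7 ± 21.9 and 144.8 ± 2.11 (-0.07; SD, n = 3). Of 7 genes described in the file as pseudogenes of these families, the highest averaged 0.227 FPKM; how reads matching several places were counted is not given in the sources used here.

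Hnrnpab, whose product binds RNA and the CArG element of DNA, had 99.8, 132.1 and 128.7 FPKM in Wtap-flox and 99.1, 89.7 and 106.2 in Wtap-CKO. Its groups overlapped at Wtap-flox 1, and the log2 fold change of -0.28 did not pass (adjusted p = 0.272), although it did with quantile normalization (adjusted p = 0.0235). Its locus overlaps the coding gene Phykpl, which stood between 1.90 and 2.18 FPKM in all hearts. Hnrnpd, the AU-rich element binding factor that promotes decay of messages, had -0.09 and its paralogue Hnrnpdl 0.08.

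The F/H genes encode proteins that bind runs of G. Hnrnpf had 48.1, 55.8 and 60.9 FPKM in Wtap-flox and 64.8, 61.2 and 69.5 in Wtap-CKO. Every Wtap-CKO heart lay above every Wtap-flox heart, the closest pair being Wtap-flox 3 and Wtap-CKO 2. Its log2 fold change of 0.25 (95% interval -0.07 to 0.56, adjusted p = 0.266) was the largest positive one among the members and did not pass in any of the 18 settings. Its paralogue Hnrnph1 had -0.18 (55.2 ± 6.21 and 48.7 ± 6.17 FPKM), Hnrnph2 had 0.13 and Hnrnph3 had -0.11. The remaining hnRNP genes did not pass, and none had groups that lay apart. Hnrnpk, which binds C-rich RNA, had 0.13 (68.7 ± 7.20 and 75.04 ± 2.5 FPKM), and its locus overlaps Rmi1 on the other strand. Hnrnpc, which binds runs of U, had -0.04 (35.1 ± 4.22 and 34.0 ± 1.57), and Hnrnpl, which binds CA repeats, had -0.07 (62.6 ± 3.45 and 60.1 ± 8.46). Hnrnpm, whose locus overlaps March2 on the same strand, had -0.12 and Hnrnpr 0.04. Hnrnpll had -0.21 (adjusted p = 0.351).

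Within the Wtap-flox group the order of the hearts was alike for most members. Wtap-flox 3 had the highest of the 3 values for 24 of 32 members (75%, against 38.7% of all genes tested), and Wtap-flox 1 had the lowest for 24 of 32 (75%, against 41.6%). The median deviation of the members from their means over 6 hearts was -0.10 in Wtap-flox 1, 0.02 in Wtap-flox 2 and 0.15 in Wtap-flox 3, as log2(FPKM + 1). Among the Wtap-CKO hearts it was -0.02, -0.08 and 0.00. Thus the range of this median among control hearts was wider than the members' median difference between the groups. Leaving out Wtap-flox 1 gave a members' median log2 fold change of -0.15, and leaving out Wtap-flox 3 gave -0.03. Summed markers of proliferating cells were 159, 209 and 238 FPKM in the same 3 hearts, and summed erythroid markers 629, 1485 and 2158 FPKM, both also lowest in the first heart and highest in the third. The macrophage and epicardial sums had the same order and the fibroblast and endothelial sums the reverse, so that 6 of 9 marker lists ran along it. Their part in the spread was not tested.

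**Figure D4:**
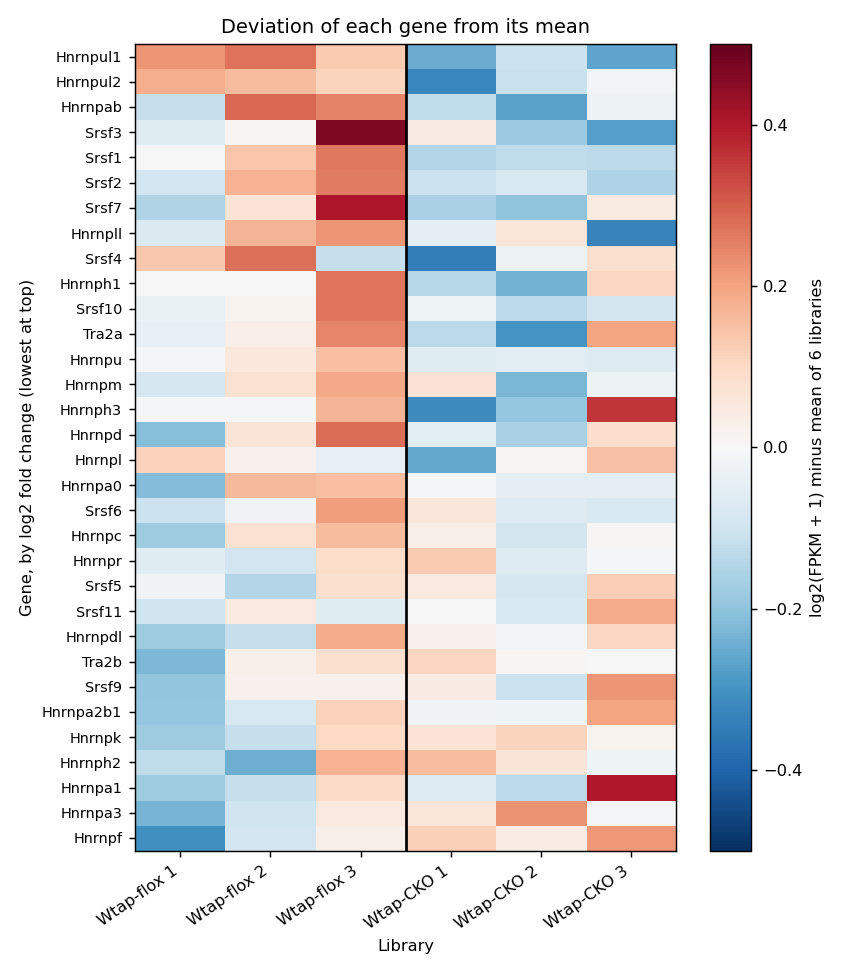
Deviation of log2(FPKM + 1) from each gene's mean over 6 hearts, for 32 genes (rows, from the lowest to the highest fold change) and 6 hearts (columns; black line between the groups). The column of Wtap-flox 3 has the highest median deviation, 0.15, and that of Wtap-flox 1 the lowest, -0.10.

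The balance between the families was also measured in a way that scaling between libraries cannot change. SR protein genes held 30.9%, 30.31% and 31.4% of the summed FPKM of all 33 genes in the Wtap-flox hearts, and 30.27%, 29.6% and 28.6% in the Wtap-CKO hearts. The groups did not overlap, but Wtap-flox 2 and Wtap-CKO 1 were nearly equal, and the exact two-sided permutation test cannot go below 0.1 for 3 against 3. All 33 genes made up 0.410% to 0.463% of the summed FPKM of a Wtap-flox library and 0.369% to 0.374% of a Wtap-CKO library. That share also depends on the other genes, whose summed FPKM was higher in Wtap-CKO.

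Gene-level values add up all transcripts of a gene. In GENCODE M39, transcripts marked for nonsense-mediated decay were listed for 13 of 13 SR protein genes (median of 21 transcripts a gene) and 14 of 20 hnRNP genes (median of 4.5), against 77.7% of 11131 tested coding genes (median of 4). Srsf5 had 55 of them, Srsf7 35, Srsf10 30 and Hnrnpul1 10, while Hnrnpf and Hnrnpul2 had none. The split of a gene's reads between productive and decay-bound transcripts is not given by these values.

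Genes that share a promoter region with a member were compared with it. A coding gene that starts on the other strand within 1000 bases was found for 10 of 33 members (30.3%, against 16.3% of tested coding genes). Of the 8 such neighbours that were tested, 1 passed, where 16.6% of all genes tested did. Cbx5, which encodes the heterochromatin protein HP1 alpha and starts 616 bases from Hnrnpa1, stood at 26.1, 26.3 and 26.7 FPKM in Wtap-flox and 16.4, 20.4 and 14.8 in Wtap-CKO. The groups did not overlap, and Cbx5 fell by 0.60 on the log2 scale (adjusted p = 0.019), while Hnrnpa1 had 0.13. The call of Cbx5 was lost without any 1 of Wtap-flox 1, 2 or 3 or Wtap-CKO 1 (adjusted p 0.0535 to 0.0705), and without the filter (adjusted p = 0.0591). Cbx3, another HP1 gene, starts 466 bases from Hnrnpa2b1 and had -0.19 (adjusted p = 0.35). Ttc9c starts 68 bases from Hnrnpul2 and had -0.26 (adjusted p = 0.161), close to the -0.30 of Hnrnpul2. Ttc9c passed with TPM scaling and array weights. Its groups did not overlap either (7.83, 8.09 and 8.92 against 6.31, 7.41 and 6.56 FPKM), as for 37.1% of all genes tested. Lrrc40 starts 23 bases from Srsf11 and had -0.27, while Srsf11 had 0.07. The rest were Mfsd11 at -0.08 (Srsf2 -0.23), Enoph1 at 0.17 (Hnrnpdl 0.08), Gla at 0.13 (Hnrnph2 0.13) and 4930524J08Rik at -0.24 (Hnrnpd -0.09).

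Few genes of the wider splicing machinery passed. Among 97 tested genes of 7 lists (other hnRNP proteins, SR kinases, SR-related proteins, arginine methyltransferases, core spliceosome, exon junction complex and nonsense-mediated decay), 2 were higher and 1 lower, 3.09% against 16.6% of all genes, with a median log2 fold change of -0.03. This count depended on the setting: 14 (13 lower) passed with TPM scaling, 10 (8 lower) with quantile normalization, 9 (7 lower) with upper-quartile scaling, 7 without Wtap-CKO 3, 5 with limma-voom and 21 (16 lower) with array weights. With array weights that was 21.6% of the 97 against 29.7% of all genes, and with TPM scaling 14.4% against 18.9%. Only 1 passed without Wtap-flox 1, without Wtap-flox 2, without Wtap-CKO 1 or without the filter, and 2 without Wtap-flox 3. Both that rose encode proteins counted as hnRNPs under other symbols, of which 16 were tested; over the settings 1 to 2 of these were higher and 0 to 4 lower. Pcbp4, a poly-C binding protein, went up by 0.92 on the log2 scale (20.9 ± 3.82 against 40.2 ± 2.81 FPKM, SD, n = 3; adjusted p = 0.00463, limma) and passed in all 18 settings. Its values were 18.0, 25.2 and 19.5 FPKM in Wtap-flox and 40.1, 37.4 and 43.0 in Wtap-CKO, with no overlap. Ptbp2, the neural paralogue of the splicing repressor PTB, rose from 5.45 ± 0.323 to 7.80 ± 0.314 FPKM (0.45, adjusted p = 0.0231) but lost its call in 7 settings, 4 of them fits without Wtap-CKO 1 or 2 or without Wtap-flox 1 or 2. Rbmx, known as hnRNP G, went from 22.3 ± 3.63 to 15.5 ± 1.97 FPKM (-0.50, adjusted p = 0.0525), and passed in 8 of the 18 settings, the 3 other scalings among them (adjusted p 0.0127 to 0.0279). Pcbp3 had -0.37 (adjusted p = 0.054) and passed with TPM scaling, upper-quartile scaling and array weights.

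Of 32 core spliceosome genes 1 fell and none rose, and over the settings 0 to 7 were lower (7 with array weights, 5 with TPM scaling) and 0 to 2 higher. This was Cdc5l, a component of the Prp19 complex, which fell by 0.43 (adjusted p = 0.0449), and missed the threshold in 9 of the 18 settings, among them each of the 6 fits without a heart (adjusted p 0.0624 to 0.146), the fit without the filter (0.0992) and the fit without the trend (0.0503). Sf3a1 of the U2 particle had -0.36 (adjusted p = 0.0602) and passed with array weights and the 3 other scalings. Prpf31 of the tri-snRNP had 0.41 (adjusted p = 0.0824) and passed with array weights, limma-voom and without Wtap-CKO 2. None of the 9 SR kinases, phosphatase and import receptor genes passed, nor were any at an unadjusted p under 0.05. Their fold changes lay between -0.29 (Srpk3, the kinase of muscle, 25.7 ± 2.68 and 21.1 ± 4.66 FPKM) and 0.03, with Clk3 at -0.20. Srpk3 passed with array weights (-0.40, adjusted p = 0.034) and without Wtap-CKO 3 (-0.46, adjusted p = 0.047). None of 18 SR-related genes passed (4 at an unadjusted p under 0.05), Son, a scaffold of nuclear speckles, having 0.31. No gene among 7 methyltransferase and importin genes (0 at an unadjusted p under 0.05), 6 exon junction genes (0) and 10 decay genes (4) passed either, with Upf1, the helicase of decay, at -0.27 (adjusted p = 0.158) and Smg8 at 0.37 (adjusted p = 0.0722). Over the settings up to 3 decay genes, 2 SR-related genes and 1 exon junction gene were lower and 1 decay gene was higher. Upf1 passed with TPM scaling and array weights, and Smg8 with array weights and without Wtap-CKO 3.

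Of 6 heart transcripts listed here as splicing targets of SR proteins or hnRNP U, 2 fell at the gene level and 4 did not pass. Over the settings 1 to 2 of them were lower. Among all genes 6.69% fell, but the list was chosen with earlier results of these data known. Trdn, which encodes triadin of the calcium release unit, fell by 0.70 (24.0 ± 2.43 to 14.3 ± 1.28 FPKM, SD, n = 3, adjusted p = 0.0075, limma). Ryr2, its release channel, fell by 0.97 (39.7 ± 10.3 to 19.7 ± 5.18 FPKM, adjusted p = 0.0233), and its call was lost without Wtap-CKO 1, Wtap-CKO 3, Wtap-flox 1 or Wtap-flox 2 (adjusted p 0.0577 to 0.0791) and without the filter. The kinase gene Camk2d had -0.21, Tnnt2 0.26, Ldb3 -0.11 and Asph -0.03. Which exons these transcripts contained was not measured in the values used here.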

How the data were processed

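RNA from 6 hearts was selected with poly-T beads and sequenced in pairs. Per the submitters' processing notes, CASAVA, HISAT2 2.0.5, featureCounts 1.5.0-p3 and DESeq2 1.20.0 were used and the build was GRCm39. The authors deposited FPKM per gene and library. FPKM times gene length came out as whole multiples of a step (within 0.01 of it) for 100.0% of values, so reads could be recovered. Coordinates follow GRCm38: 94.8% of 20477 coding genes lay within 1000 bases of GRCm38.p6 and 3.30% of 21728 of GRCm39. No per-sample column was left unused.

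From these values, log2(FPKM + 1) was tested with limma 3.58.1 (R 4.3.3; trend, robust, two-sided, Benjamini-Hochberg over the 12568 genes averaging 1 FPKM or more, threshold 0.05), without a block. The procedure was checked on simulated data, in which changed genes differed by at least 2-fold, more than any member's estimate here. That check does not show how often differences as small as the members' would be called. The pseudocount understates folds of low genes. Figures were drawn with matplotlib 3.10.9, and tables made with pandas 2.3.3 and scipy 1.17.1.

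Members, gene lists and tests were chosen with earlier results of these data known. The text may name every member, Wtap, up to 4 genes of each list by adjusted p and the first in the other direction, all SR kinase and heart target genes, and coding neighbours or overlaps of members; not all are printed. The promoters shown were chosen after their genes' values were seen, as were the shares of summed FPKM and the order of hearts. The submitters call the 3 hearts of a group independent biological replicates. Alternatives were 2 other pseudocounts (0.1 and 0.5), 2 filters, 3 scalings (TPM, upper quartile, quantile), limma without trend or robust moderation, array weights, a replicate block, limma-voom on recovered reads, and each heart left out in turn. The limma-voom fit used the library sizes implied by the FPKM, not the sums of assigned reads.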

Additional observations from a re-analysis of the deposited data

How the results depend on the processing

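Hnrnpul1 kept its negative sign in all 18 alternatives and 0 SR protein or hnRNP genes were higher in any of them. The count of hnRNP genes lower, 1 in the main result, was 2 with TPM scaling (Hnrnpul1 and Hnrnpul2), 2 with quantile normalization (Hnrnpab and Hnrnpul1), 2 with array weights (Hnrnpul1 and Hnrnpul2), 0 without the filter and 0 with the replicate block. With 1 heart left out it was 0 to 1; those fits have fewer samples. The count of SR protein genes lower, 0 in the main result, was 1 with TPM scaling (Srsf1), 2 with quantile normalization (Srsf1 and Srsf2) and 1 with array weights (Srsf4). The median of the SR protein genes was -0.33 with TPM scaling, and that of the hnRNP genes -0.23 with TPM scaling and -0.18 with quantile normalization. TPM scaling sets each library's sum equal, which moved the median of all genes to -0.15. The members' median lay 0.08 below that of all genes as deposited, 0.09 below with TPM or upper-quartile scaling and 0.19 below with quantile normalization. Of the 32 tested members 17 kept one sign throughout, 15 negative and 2 positive.

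The replicate numbers of the labels did not pair the hearts: the correlations of same-numbered deviations were -0.22, -0.08 and -0.08. With the replicate block 1673 genes passed over all genes, against 2086 without it, and 0 members (Hnrnpul1 had an adjusted p of 0.0811, limma). Other settings gave between 1195 and 3732 calls over all genes (1206 without the filter, which tested 27201 genes, and 3732 with array weights), and between 0 and 4 members. As deposited 59.7% of the calls over all genes were higher, and 45.4% were with upper-quartile and 33.4% with TPM scaling.

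Signs turned for members near 0 and for Asph and Wtap. With TPM scaling the log2 fold changes were -0.060 for Hnrnpa2b1, -0.033 for Hnrnpa1, -0.11 for Srsf5, -0.035 for Hnrnpk, -0.088 for Hnrnpdl, -0.028 for Hnrnph2, -0.088 for Srsf11, -0.059 for Srsf9, -0.080 for Tra2b and -0.11 for Hnrnpr. With quantile normalization they were -0.10 for Hnrnpa2b1, -0.10 for Hnrnpa1, -0.18 for Srsf5, -0.10 for Hnrnpk, -0.066 for Hnrnpdl and -0.019 for Srsf11. With upper-quartile scaling they were -0.031 for Srsf5, -0.011 for Hnrnpdl, -0.011 for Srsf11, -0.0041 for Tra2b and -0.032 for Hnrnpr. With array weights they were 0.0044 for Srsf6, 0.058 for Asph and 0.0076 for Wtap. With 1 heart left out they ran from -0.035 to 0.23 for Hnrnpa1 (turned without Wtap-CKO 3), -0.0026 to 0.11 for Srsf5 (turned without Wtap-flox 2), -0.16 to 0.045 for Hnrnpl (turned without Wtap-CKO 1), -0.12 to 0.034 for Srsf6 (turned without Wtap-flox 3), -0.14 to 0.031 for Hnrnpc (turned without Wtap-flox 3), -0.00036 to 0.13 for Srsf11 (turned without Wtap-CKO 3), -0.22 to 0.030 for Hnrnpd (turned without Wtap-flox 3), -0.014 to 0.14 for Tra2b (turned without Wtap-flox 1), -0.31 to 0.028 for Hnrnph3 (turned without Wtap-CKO 1), -0.015 to 0.10 for Hnrnpr (turned without Wtap-CKO 1), -0.10 to 0.080 for Asph (turned without Wtap-CKO 3) and -0.13 to 0.086 for Wtap (turned without Wtap-flox 3 or Wtap-CKO 2).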
